A study of Mus musculus with 7 samples.

Results

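The genes described here encode voltage-gated sodium and calcium channels of the mouse cortex. They were taken by symbol: 30 of the 19614 genes counted in the series match Scn followed by a digit, or begin with Cacna or Cacnb. The 29 with at least 20 unique molecular identifiers (UMIs, each standing for one captured mRNA molecule) over all libraries were kept, and Scn10a, with 3 UMIs, was left out. The lowest member just inside that limit was Cacna1f with 45 UMIs, and Scn2a had 55017. They comprise sodium channel alpha subunits (such as Scn1a, Scn2a, Scn3a and Scn8a) and beta subunits (such as Scn2b, Scn3b and Scn4b), 10 calcium channel alpha-1 subunits (Cacna1a to Cacna1i and Cacna1s), 4 alpha-2-delta subunits (Cacna2d1 to Cacna2d4) and 4 calcium channel beta subunits (Cacnb1 to Cacnb4).

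Dissociated cells from 2 cortical areas, the motor cortex (MC) and the ventromedial part of the prefrontal cortex (PFC), were profiled by droplet single-cell RNA sequencing in 7 libraries. All mice were B6129SF1/J animals at P30, kept under a cycle of 12 h light and 12 h dark, and all carried Opn4-Cre/+, in which Cre is made by cells that use the melanopsin gene. The control group (CTRL) was Opn4-Cre/+; Brn3b-+/+ and gave 2 PFC libraries and 1 MC library. The ablated group (DTA) was Opn4-Cre/+; Brn3b-zDTA/+, with a Cre-dependent diphtheria toxin allele at Brn3b, so that intrinsically photosensitive retinal ganglion cells, the melanopsin cells of the retina that use Brn3b, are ablated. It gave 3 PFC libraries and 1 MC library. The labels do not say whether a library held tissue of 1 mouse or of several, so p-values measure the spread between libraries, which may in part be technical.

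A voltage-gated sodium channel is one large alpha subunit that forms the pore, joined by small beta subunits that tune its gating and its place in the membrane. Sodium channels at the axon initial segment start the action potential. Calcium channels couple the same voltage change to transmitter release, dendritic signalling and gene expression: the alpha-1 subunit forms the pore, and the alpha-2-delta and beta subunits carry it to the membrane and set how much current it passes. Mutations in several of these genes, among them Scn1a, Scn2a, Scn8a and Cacna1a, are known causes of epilepsy.

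Cells were sorted into 9 classes, 5 excitatory and 5 interneuron subclasses by marker genes that included no channel gene. The classes held 10795 excitatory neurons, 2002 inhibitory neurons, 3418 astrocytes, 818 oligodendrocyte precursors (OPCs), 306 newly formed oligodendrocytes, 1888 mature oligodendrocytes, 1799 microglia, 1461 endothelial cells and 632 mural cells (pericytes and smooth muscle). Libraries held 1936 to 9879 cells and 6180059 to 30972905 UMIs, and their median cell had 1360 to 4924 UMIs. PFC CTRL replicate 1, PFC DTA replicate 2 and MC DTA had the deepest cells, and they include both areas and both genotypes. Any pair of libraries shared 7 to 92 cell barcodes. Levels below are CPM, the UMIs of a gene per 1000000 UMIs of that class in that library, given as the mean over libraries with its SD. They come from the 3' ends of transcripts and are not compared between genes. Exons of 9 members overlap a gene on the other strand (among them Cacna1a, Cacna1h, Cacna2d2, Cacnb2, Cacnb4 and Scn9a), and the sources used here do not say whether counting was by strand, so reads of such pairs may be mixed. Every p-value across genes is from the quasi-likelihood test of edgeR on summed counts with Benjamini-Hochberg adjustment over all genes tested, and a gene is called when its adjusted p is under 0.05. In such sums, fewer cells of a type within a class and less RNA per cell cannot be told apart.

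Neurons carried most of these transcripts. Of the 29 genes, 22 passed the filter on low counts in the comparison of classes, and all 22 were higher in neurons (mean of excitatory and inhibitory) than in the mean of the 7 non-neuronal classes. Of all 10951 genes tested, 43.5% were higher in neurons and 34.4% lower. The median log2 fold change was 3.07 for the tested members and 0.06 for all genes. The members that did not pass the filter and have no test include Cacna1f, Cacna1s, Cacna2d4, Scn4b, Scn7a and Scn9a. Because the filter favours genes that are high in some class, the count is a description of the members tested.

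The widest gap was that of Scn1a, the pore subunit of Nav1.1. Its level in inhibitory neurons had a median of 229 CPM over the 7 libraries, from 195 to 284. In excitatory neurons the median was 63.0, from 51.5 to 110. In the highest of the non-neuronal classes, OPCs, it was 24.0, from 13.1 to 40.0. All 7 libraries had Scn1a higher in both neuron classes than in OPCs, and the libraries of the neuron classes did not overlap those of the OPCs. The log2 fold change of neurons over non-neuronal classes was 4.28 (SE 0.125, adjusted p = 9.32e-44).

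Cacna1b, the pore of the presynaptic N-type channel, followed. It had a median of 95 in excitatory neurons, from 71.2 to 110, and of 99.9 in inhibitory neurons, from 88.7 to 122. OPCs were again the highest non-neuronal class, with a median of 18.5 and a highest library of 32.7, so neurons and OPCs did not overlap. The log2 fold change was 4.05. Next came Scn2a at 3.90, Scn2b at 3.57, Cacna2d2 at 3.47 and Cacna1a, the pore of the P/Q-type channel, at 3.37. The smallest rise was that of Cacna1h, a low-threshold T-type pore, with a log2 fold change of 1.19 (SE 0.228, adjusted p = 2.71e-06), and it was higher in neurons in 6 of 7 libraries.

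**Figure D1:**
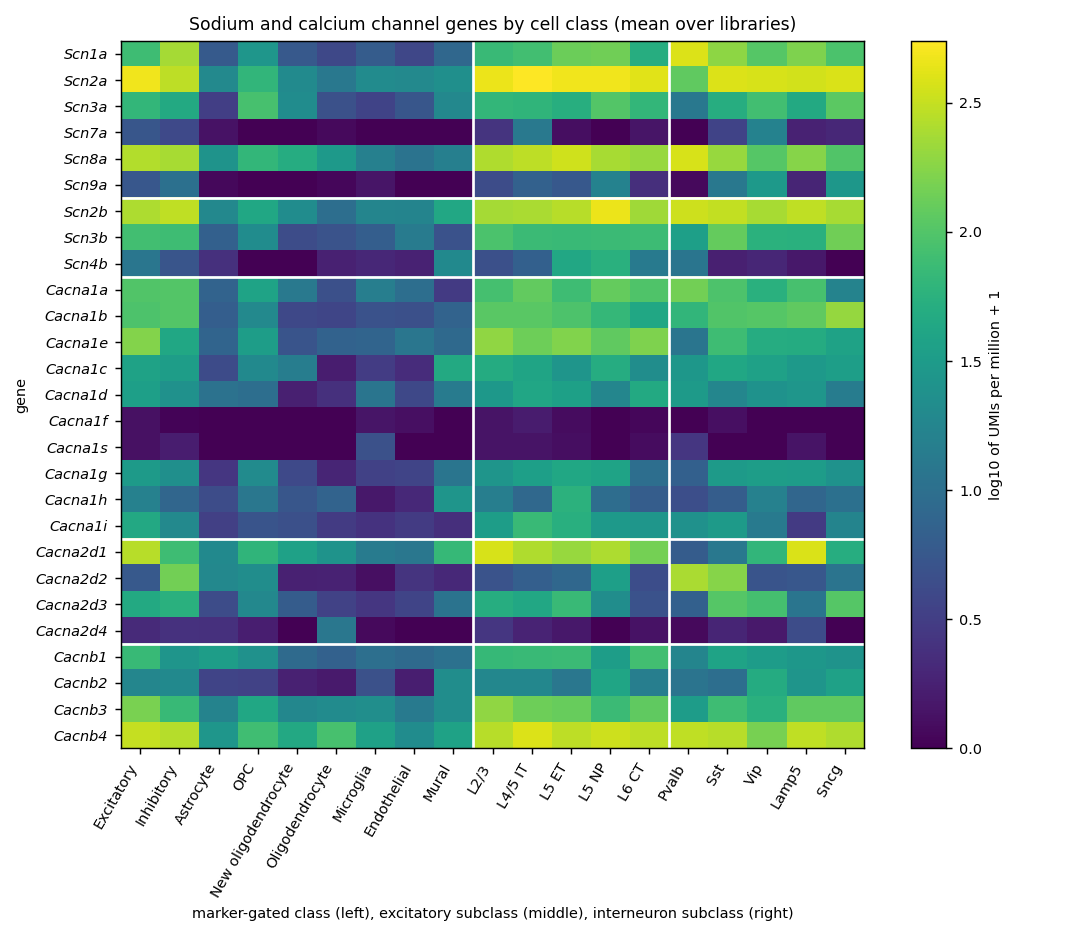
Mean level of the channel genes reported here (rows, grouped into sodium alpha, sodium beta, calcium alpha-1, alpha-2-delta and calcium beta subunits) in 9 cell classes, 5 excitatory subclasses and 5 interneuron subclasses (columns). The colour is log10 of CPM plus 1. Scn1a reaches 396 in Pvalb interneurons and stays at or under 26.3 in every non-neuronal class, and Cacna2d2 is at 247 in Pvalb interneurons against 4.79 in excitatory neurons.

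By mean level, 12 members were highest in excitatory neurons, 9 in inhibitory neurons, 4 in mural cells, 2 in microglia, 1 in mature oligodendrocytes and 1 in OPCs. Of the members under 20 CPM in every class and subclass, Cacna1f, the retinal L-type pore, reached 0.617, Cacna1s, the skeletal muscle pore, 3.83 (microglia), Cacna2d4 11.2 (mature oligodendrocytes), and Scn7a 15.5 (Vip interneurons). Transcripts of excitatory neurons were present in every non-neuronal class. None of 8 excitatory marker genes was at 0 there, and the highest of them stood at 6.56% to 15.4% of its excitatory level, depending on the class. The members that exceeded that share of their own higher neuron level numbered 17 of 29 in OPCs, 13 in mural cells, 8 in astrocytes, 8 in mature oligodendrocytes, 6 in newly formed oligodendrocytes, 5 in microglia and 5 in endothelial cells. The share came from excitatory markers also for members whose higher neuron level is the inhibitory one. The part of carried-over neuronal RNA in the levels of the other members in those classes was not tested.

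Channel subunits differed between inhibitory and excitatory neurons in both directions. Of the 22 members tested, 2 were higher in inhibitory neurons, where 23.9% of all genes were, and 10 were lower, where 26.9% of all genes were. The median log2 fold change was -0.26 for the members and -0.02 for all genes. Cacna2d2 and Scn1a were the 2 higher genes, and the lower ones were led by Cacna1e, Cacna2d1 and Cacnb1.

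Scn1a was on average 234 ± 37.9 CPM in inhibitory and 75.9 in excitatory neurons (SD, n = 7 libraries), with a log2 fold change of 1.58 (SE 0.13, adjusted p = 1.02e-17). The lowest inhibitory library, at 195, lay above the highest excitatory one, at 110. Scn2a, the pore of Nav1.2 and the main sodium channel of immature and excitatory axons, went the other way, at 475 ± 45.2 in excitatory and 291 ± 40.0 in inhibitory neurons, with a log2 fold change of -0.81 (SE 0.167, adjusted p = 5.11e-05). Scn3a, best known from the developing brain, was also lower in inhibitory neurons, by -0.64 on the log2 scale. Scn8a, the pore of Nav1.6 at mature nodes and initial segments, was not called, at 265 ± 53.4 in excitatory and 240 ± 62.0 in inhibitory neurons. Of the sodium beta subunits, Scn2b (0.18 on the log2 scale) and Scn3b (-0.15) were not called either.

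Among calcium channel pores, Cacna1e, which forms the R-type channel, showed the largest gap. Its excitatory level had a median of 170, from 130 to 204, and its inhibitory level a median of 44.8, from 29.8 to 55.7, so the 2 classes did not overlap in any library. The log2 fold change was -2.17 (SE 0.138, adjusted p = 1.48e-23). The T-type pores Cacna1i (-1.35), Cacna1h (-1.14) and Cacna1g (-0.57) and the L-type pore Cacna1d (-0.61) were lower as well. The adjusted p of Cacna1g was 0.00232 with edgeR and 0.0698 with DESeq2, so that call depends on the tool. The presynaptic pores Cacna1a (-0.09) and Cacna1b (-0.01) and the L-type pore Cacna1c (-0.24) were not called.

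The alpha-2-delta subunits, which bind the gabapentinoid drugs in the case of Cacna2d1 and Cacna2d2, stood at opposite ends. Cacna2d2 had a median of 141 in inhibitory neurons, from 110 to 179, and of 4.61 in excitatory neurons, from 3.53 to 6.53. It was higher in inhibitory neurons in 7 of 7 libraries without overlap, with a log2 fold change of 4.84 (SE 0.143, adjusted p = 1.61e-43) and a fold of 28.6. Cacna2d1 had a median of 269 in excitatory neurons, from 214 to 364, and of 62.6 in inhibitory neurons, from 51.2 to 146. It was lower in inhibitory neurons, again without overlap, with a log2 fold change of -1.98 (SE 0.13, adjusted p = 7.66e-23). Cacna2d3 was not called, at 45.4 ± 12.8 in excitatory and 54.1 in inhibitory neurons. Of the calcium beta subunits, Cacnb1 (-1.52) and Cacnb3 (-1.28) were lower in inhibitory neurons, and Cacnb2 (0.10) and Cacnb4 (-0.29) were not called.

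**Figure D2:**
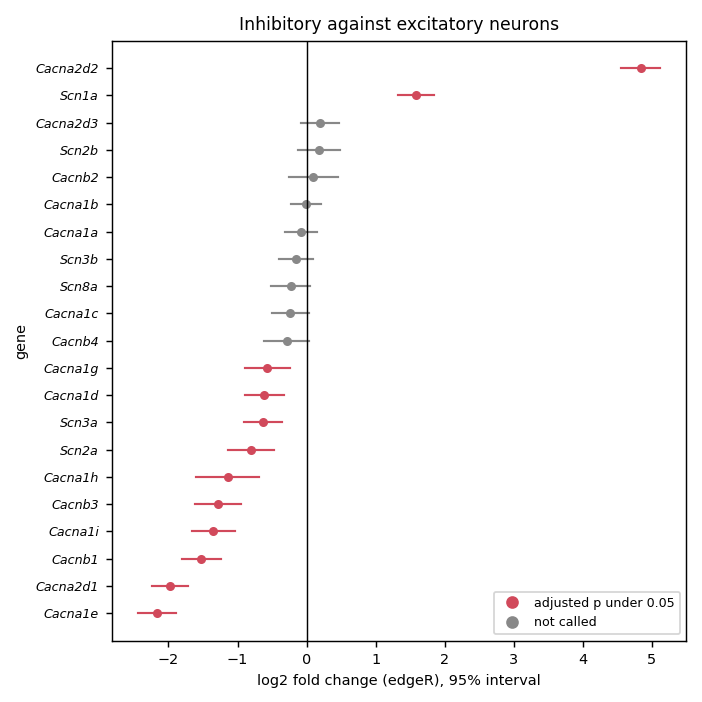
Log2 fold change (x axis) of inhibitory over excitatory neurons for the tested members reported here, with 95% intervals from edgeR over 7 libraries. Red points are called at an adjusted p under 0.05, and Cacna2d2 at 4.84 and Scn1a at 1.58 are the 2 red points to the right of 0.

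The promoters of the 2 genes higher in inhibitory neurons, Cacna2d2 and Scn1a, and of Cacna2d1, the alpha-2-delta gene that was lower, are shown to let their base composition be seen beside their levels. Each runs from 250 bases before to 50 bases after the RefSeq start in GRCm38.p6, is printed 5' to 3' on the strand of the gene, and has GC boxes (GGGCGG on either strand, the letters bound by Sp factors) in capitals. They lie at chr2:66440788-66441087 on the minus strand for Scn1a, chr5:15934441-15934740 on the plus strand for Cacna2d1 and chr9:107399630-107399929 on the plus strand for Cacna2d2.
Scn1a: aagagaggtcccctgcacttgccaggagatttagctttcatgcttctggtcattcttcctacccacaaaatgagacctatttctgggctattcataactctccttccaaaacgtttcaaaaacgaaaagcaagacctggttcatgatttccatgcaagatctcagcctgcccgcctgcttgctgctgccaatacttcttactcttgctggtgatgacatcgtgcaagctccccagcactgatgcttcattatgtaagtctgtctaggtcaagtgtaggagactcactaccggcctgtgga
Cacna2d1: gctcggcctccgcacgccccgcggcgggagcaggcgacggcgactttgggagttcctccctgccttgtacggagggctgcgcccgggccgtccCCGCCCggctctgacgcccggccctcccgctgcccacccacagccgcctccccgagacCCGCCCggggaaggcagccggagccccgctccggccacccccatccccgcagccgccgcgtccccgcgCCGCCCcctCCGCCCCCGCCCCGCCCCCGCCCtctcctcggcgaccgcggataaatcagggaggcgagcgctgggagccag
Cacna2d2: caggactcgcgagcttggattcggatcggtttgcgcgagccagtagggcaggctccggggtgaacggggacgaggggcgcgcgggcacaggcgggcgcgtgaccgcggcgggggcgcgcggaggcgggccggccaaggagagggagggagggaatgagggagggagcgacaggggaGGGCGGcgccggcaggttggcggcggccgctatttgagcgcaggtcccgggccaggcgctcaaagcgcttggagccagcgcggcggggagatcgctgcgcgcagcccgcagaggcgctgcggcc
Scn1a has no GC box in this window and 47.3% G or C, Cacna2d1 has 7 GC boxes and 80.0%, and Cacna2d2 has 1 and 75.7%. RefSeq promoters matched 21 of the 29 members, with 31 starts. A GC box was present in 13 of 22 promoters of calcium channel genes (59.1%), in 1 of 9 of sodium channel genes (11.1%) and in 35.7% of all 32851 promoters. TATAAA, on either strand, was found in 2 member promoters, those of Scn2a and Cacna1d, and in 13.6% of all promoters. TGACGTCA (the cyclic AMP response element), CACGTG (an E-box), the MEF2 core and TCAAGGTCA (an estrogen-related receptor site), on either strand, were in no member promoter and in 1.79%, 7.15%, 0.164% and 0.423% of all promoters. Cacna2d1 and Cacna2d2 thus both hold GC boxes while their levels run in opposite directions between the 2 neuron classes.

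The interneuron subclasses carried different sets of channel genes. The 5 subclasses were Pvalb cells (fast-spiking basket and chandelier cells, 511 cells), Sst cells (449), Vip cells (254), Lamp5 cells (448) and Sncg cells (126), and each was compared with the mean of the other 4 on the log scale. Of the 29 members, 19 passed the filter. Sncg cells gave sums of at least 10 cells in 4 libraries only, and the others in all 7.

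Pvalb interneurons stood apart most: 7 members were higher, where 28.1% of all genes were, and 11 were lower, where 24.7% were. Their median log2 fold change was -0.93, against 0.01 for all 6775 genes tested. Of the pores, Scn1a was at 396 ± 41.4, from 313 to 429, with a log2 fold change of 1.61 (SE 0.0871, adjusted p = 3.50e-31), and Scn8a at 376 ± 107, with 1.54 (SE 0.0923, adjusted p = 2.43e-26). Scn2a was at 117 ± 41.8 in Pvalb cells, and at 359 to 389 in the means of the other 4 subclasses. The ratio of Scn1a to Scn2a UMIs, a description of 2 counts from the same sums, was 3.83 ± 1.54 in Pvalb cells, 0.496 in Sst, 0.463 in Lamp5, 0.278 in Vip and 0.242 in Sncg cells, and 0.161 ± 0.0538 in excitatory neurons. The lowest Pvalb library, at 1.80, lay above the highest library of any other subclass with a ratio, at 0.743 in Sst cells.

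Their auxiliary subunits differed too. Cacna2d2 was at 247 ± 53.1 in Pvalb cells, from 151 to 315, with a log2 fold change of 4.16 (SE 0.16, adjusted p = 6.66e-39). Cacna2d1 was at 5.33 ± 3.47, with no UMI in PFC DTA replicate 1 and at most 9.82 in any library, and a log2 fold change of -3.17 (SE 0.24, adjusted p = 9.31e-22). Cacna2d3 (-3.01) and Scn3a (-2.40) followed among the lower genes. Pvalb cells therefore carried 1 of the 3 tested alpha-2-delta genes at a high level and the other 2 at single-digit levels in most libraries.

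Sst interneurons also had high Cacna2d2, at 173 ± 23.7, from 137 to 196, with a log2 fold change of 3.45 (SE 0.181, adjusted p = 1.32e-29). Cacna2d3, low in Pvalb cells, was at 103 ± 19.3 with a log2 fold change of 1.78, and Cacna1e at 75.9 with 1.30. In all, 10 members were higher (16.2% of all genes were) and 2 were lower (11.0%), Cacna2d1 by -2.19 and Cacnb2 by -1.35. Vip interneurons had 6 members higher (13% of all genes) and 7 lower (13.5%). Cacnb2, with a log2 fold change of 1.55, Cacna2d3 with 1.29 and Scn3a with 0.89 led the higher ones, and Cacna2d2 (-3.38), Scn1a (-0.97) and Scn8a (-0.96) the lower ones. Cacnb2 in Vip cells varied between libraries, from 0 in PFC DTA replicate 1 to 118 in MC CTRL.

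Lamp5 interneurons, which include neurogliaform cells, were the interneurons with high Cacna2d1. Its level had a median of 400 there, from 171 to 517, and the mean of 380 lay within the spread of excitatory layer 2/3 neurons (375 ± 76.1). The next interneuron subclass, Vip, was at 62.2, and no library of it reached the lowest Lamp5 library. The log2 fold change was 4.26 (SE 0.124, adjusted p = 1.76e-52). Cacnb3 (0.84) and Cacna1g (0.79) were also among the 7 higher members (16.5% of all genes), and Cacna2d2 (-2.81) and Cacna2d3 (-1.86) were the 2 lower ones (16.0%). The call of Cacna1g was lost without PFC DTA replicate 2 (adjusted p = 0.0729), without MC CTRL (0.123) and with a stricter marker gate (0.0757).

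Sncg interneurons, which include Cck basket cells, had 6 members higher (9.71% of all genes) and 5 lower (6.66%). Cacna1b was at 223, 211, 179 and 190 CPM in their 4 libraries, which is the highest mean of any class or subclass for that gene (201 ± 19.9), with a log2 fold change of 1.01. Cacna1a, the other presynaptic pore, was at 15.9 ± 11.4, the lowest mean of any neuron subclass, with a log2 fold change of -2.53 (SE 0.325, adjusted p = 5.46e-10). The higher members were led by Cacna2d3 (1.79), Scn3a (1.40) and Scn3b (1.24), and Scn8a (-1.06) was lower as well. Against the other interneuron subclasses, the 2 release-site pores thus moved in opposite directions in Sncg cells (n = 4). In Pvalb cells Cacna1a was at 144 and higher than in the others, and Cacna1b was at 62.1, the lowest mean of the 5 interneuron subclasses.

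**Figure D3:**
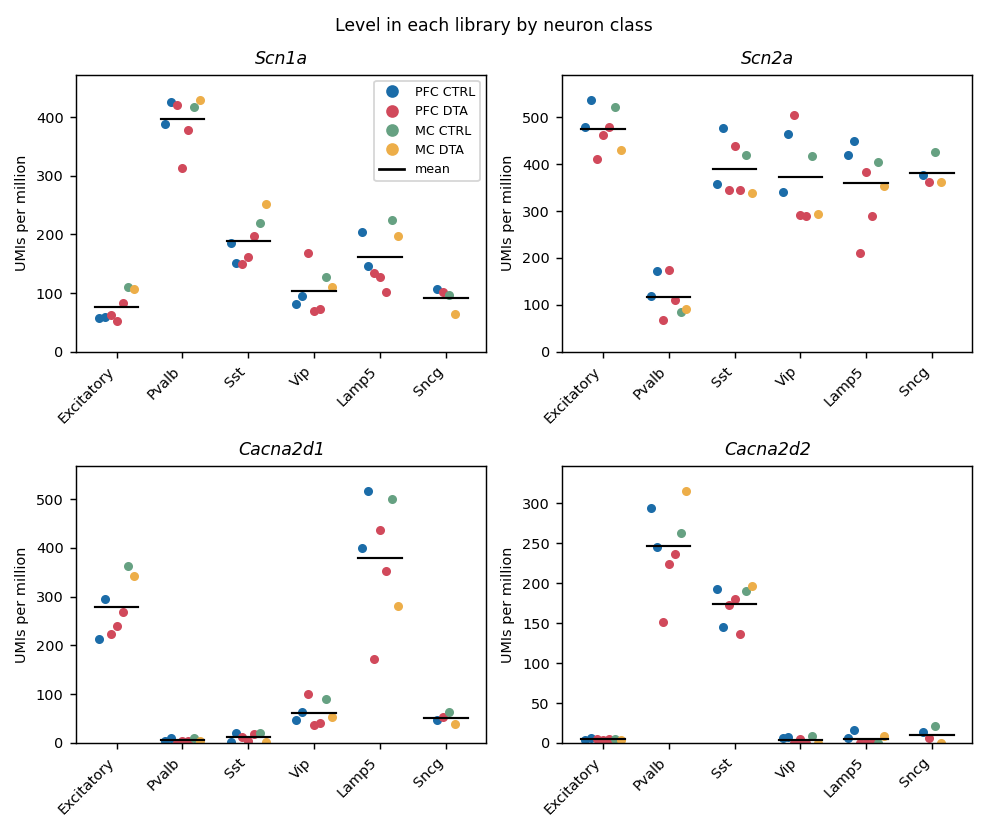
Level of Scn1a, Scn2a, Cacna2d1 and Cacna2d2 (CPM, y axis) in excitatory neurons and 5 interneuron subclasses (x axis). Each point is 1 library, coloured by area and genotype, and the bar is the mean over libraries. Scn1a is at 313 to 429 and Scn2a at 67.3 to 174 in Pvalb cells, and Cacna2d1 is at 171 to 517 in Lamp5 cells.

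Excitatory neurons were divided into layer 2/3 (L2/3, 2808 cells), layer 4/5 intratelencephalic (L4/5 IT, 1319), layer 5 extratelencephalic (L5 ET, 519), layer 5 near-projecting (L5 NP, 100) and layer 6 corticothalamic (L6 CT, 1346) cells, and 25 of the 29 members passed the filter. L5 NP cells gave sums in 3 PFC libraries only, so leaving out PFC CTRL replicate 2, PFC DTA replicate 2 or PFC DTA replicate 3 removes them from the mean against which the others are set.

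L5 ET neurons, the thick-tufted cells that project out of the telencephalon, were the excitatory cells with high Cacna1h. This T-type pore was at 57.0 ± 28.0 CPM there and at 5.46 to 13.7 in the means of the other subclasses, with a log2 fold change of 2.77 (SE 0.273, adjusted p = 2.80e-08). Within L5 ET cells it was at 59.1 to 97.5 in the 5 PFC libraries, and at 18.5 and 21.8 in the MC libraries. Cacna2d3 (71.8 ± 24.1, log2 fold change 1.87) and Scn4b (42.8 ± 39.8, log2 fold change 1.79, adjusted p = 4.92e-09) were the next of the 8 higher members (13.1% of all genes). Of the 4 lower members (7.05%), the largest were Cacnb2 (-0.96), Cacna1a (-0.39) and Cacna2d1 (-0.27). Cacnb2 was no longer called without PFC CTRL replicate 2 (adjusted p = 0.0873), without PFC DTA replicate 2 (0.0967) or with a stricter marker gate (0.126). That gate also ended the Cacna1a call (0.132).

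L4/5 IT neurons were the excitatory cells with Scn7a, a sodium-leak relative of the other channels. It ranged from 4.04 to 19.8 CPM over the libraries, with a log2 fold change of 5.22 (SE 0.485, adjusted p = 2.81e-11) against the other excitatory subclasses. Cacna1i, another T-type pore, was at 70.3 ± 14.5 (log2 fold change 0.95) and Scn9a had a log2 fold change of 0.89, which DESeq2 did not call (adjusted p = 0.0662). In all, 10 members were higher (15.2% of all genes) and 2 were lower (7.15%), Scn4b by -1.72 and Scn2b by -0.19. The Scn2b difference was lost without any of PFC CTRL replicate 2 (adjusted p = 0.999), PFC DTA replicate 1 (0.0642), PFC DTA replicate 2 (0.981) and PFC DTA replicate 3, where it was 0.01 on the log2 scale.

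L2/3 neurons had the highest excitatory mean of Cacna2d1, at 375 ± 76.1. Of their 7 higher members (20.9% of all genes), Cacna2d3 (1.09), Cacna2d1 (0.87) and Cacnb3 (0.84) led. Scn4b (-2.62), Cacna2d2 (-1.33) and Scn1a (-0.47) led the 6 lower ones (12.4%). The Cacna2d2 call was lost without PFC CTRL replicate 2 (log2 fold change -0.61), PFC DTA replicate 2 (-0.62) or PFC DTA replicate 3 (-0.65), and the Scn1a call without the first 2 of these (-0.24 and -0.15).

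L6 CT neurons had the lowest excitatory levels of several members: 11 of 25 were lower (9.09% of all genes) and 2 were higher (17.0%). The median log2 fold change was -0.39 for the members and 0.06 for all genes. Cacna2d3 was at 3.85 ± 1.93, with a log2 fold change of -3.46 (SE 0.509, adjusted p = 4.92e-06), and the highest library, at 6.11, lay below every library of L4/5 IT cells (25.0 to 63.9). Scn9a (-2.12) and Cacna1g (-2.07) followed. The higher genes were Cacna1d (0.73), an L-type pore that opens near rest, and Cacnb1 (0.51), the latter lost without PFC DTA replicate 2 (adjusted p = 0.0869).

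L5 NP neurons, over 3 libraries, had 3 members higher (2.95% of all genes) and 1 lower (5.39%). Scn4b, the beta subunit linked to resurgent sodium current, was at 30.7, 45 and 84.2 CPM, with a log2 fold change of 3.14 (SE 0.633, adjusted p = 0.00072). L5 NP cells of all 7 libraries held 21 UMIs of Scn4b, and only the part of them in these 3 libraries entered the fit. Scn1a (1.03) and Scn2b (0.77) were the other higher genes. The lower one was Cacnb3 (-0.98), which lost its call when libraries were scaled by their totals (adjusted p = 0.0725, a split of 3 higher and 0 lower) or tested with DESeq2 (0.116). The 4 genes for T-type and R-type pores did not move as one between layers: Cacna1h peaked in L5 ET, Cacna1i in L4/5 IT and Cacna1e in L2/3 (191 by mean), and Cacna1g was at 42.1 in L5 ET and 8.80 in L6 CT cells.

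Along the oligodendrocyte lineage, precursors carried more of these genes than mature cells. OPCs are known to receive synapses and to carry voltage-gated currents. Of the 22 members tested, 16 were higher in OPCs, where 31.0% of all genes were, and 1 was lower, where 25.2% were, with a median of 1.60 against 0.13 for all genes. Scn3a had a median of 84.6 in OPCs, from 52.2 to 126, and of 4.08 in mature oligodendrocytes, from 0 to 7.04. Each OPC library lay above all mature ones, with a log2 fold change of 4.01 (SE 0.29, adjusted p = 8.39e-21). Of the 9 classes, OPCs had the highest mean of Scn3a, at 85.7 ± 27.1, against 64.1 in excitatory neurons.

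Cacna2d2 was at 21.1 ± 9.93 in OPCs, from 9.35 to 38. In mature oligodendrocytes it did not pass 2.93 in any library, so the classes did not overlap (log2 fold change 3.90, SE 0.476, adjusted p = 4.14e-11, on 36 and 10 UMIs). Cacna1g (3.82), the L-type pore Cacna1c (3.27), Cacna1a (2.55) and Scn1a (2.40) followed. Of these genes, Cacna2d2 and Scn1a were not among the 17 members above the share of the highest excitatory marker in OPCs. That marker is not matched to these 2 genes, whose higher neuron class is the inhibitory one. The 10 inhibitory markers stood in OPCs at a median of 1.07% of their inhibitory level and a summed 4.32%, with Adarb2 the highest at 29.1%. For Cacna2d2, OPCs had the second highest mean of the 9 classes, after inhibitory neurons at 143. Scn3a, Cacna1g, Cacna1c and Cacna1a were among them. Cacnb4 was the one lower member, at 78.1 ± 21.1 in OPCs and 87.7 ± 20.9 in mature cells. The libraries of the 2 classes overlapped, and OPCs were higher in 4 of 7 libraries. Its log2 fold change was -0.78 (SE 0.255, adjusted p = 0.00731) with trimmed-mean (TMM) scaling and -0.17 (adjusted p = 0.593) with library totals.

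Scaling matters more in this comparison than in the others: with library totals in place of TMM the median of all genes moved from 0.13 to 0.74, and the members split into 19 higher and 0 lower. Relative to that shift of 0.61, Scn3a and Cacna2d2 moved in the same direction under both. The summed level of the 8 excitatory markers was 289 in OPCs (91.4 to 575 by library) and 126 in mature oligodendrocytes (39.7 to 217), and its part in the result was not tested. By mean level, Scn3a was higher in OPCs than in either neuron class. The highest excitatory marker stood at 15.4% of its excitatory level in OPCs. The part of carried-over RNA in the OPC levels of the members was not tested.

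Several L-type and T-type genes were higher in mural than in endothelial cells. Smooth muscle and pericytes are known to contract with calcium that enters through L-type channels. Of the 22 members tested, 10 were higher in mural cells, where 14.7% of all genes were, and 2 were lower, where 21.0% were, with a median of 0.96 against -0.10 for all genes. Cacna1c, the vascular L-type pore, had a median of 40.3 in mural cells, from 23.6 to 92.9, and of 1.70 in endothelial cells, from 0 to 2.73. The classes did not overlap, and the log2 fold change was 4.57 (SE 0.47, adjusted p = 1.47e-13), on 46 and 6 UMIs. Cacna1h had a median of 18.6 in mural cells, from 13.6 to 47.6, and at most 3.41 in endothelial cells, with a log2 fold change of 4.50 (SE 0.651, adjusted p = 1.47e-08).

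Cacnb2, the beta subunit paired with Cacna1c in heart and vessel muscle, had a log2 fold change of 4.21 (SE 0.735, adjusted p = 1.53e-06) and was higher in mural cells in 6 of 7 libraries. Cacna2d1 was at 67.1 ± 14.4 against 11.3 ± 8.02, with a log2 fold change of 2.32 (SE 0.314, adjusted p = 2.15e-09), and its lowest mural library, at 51.3, lay above the highest endothelial one, at 22.4. Those 4 subunits, a pore of each type with an alpha-2-delta and a beta subunit, kept their calls under every alternative that gave them a value. Cacna2d3 (1.94) and Cacna1g (1.93) were the next higher members, and Cacna1a (-2.41) and Scn3b (-1.68), both at or under 12.8 CPM in endothelial cells, the 2 lower ones. Without PFC CTRL replicate 2 the number of called members fell from 12 to 6, without PFC DTA replicate 2 to 7, and with a stricter marker gate to 7. Cacna1h did not pass the filter under any of these 3, nor Cacnb2 under the stricter gate, so part of the fall is of genes with no value there. The summed excitatory markers were 216 in mural and 154 in endothelial cells, and their part was not tested.

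Other proteins that bind these channels were read from a list of 27 genes, among them ankyrins, fibroblast growth factor homologous factors, calmodulins, sodium leak channel subunits and small GTPases that restrain calcium channels. Of the 25 tested, 22 were higher in neurons than in non-neuronal classes (43.5% of all genes) and 3 lower (34.4%). Between inhibitory and excitatory neurons, 7 were higher (23.9%) and 10 lower (26.9%), with a median of -0.19. Fgf11, which binds the tails of sodium channel alpha subunits, was higher in inhibitory neurons by 4.20 on the log2 scale (SE 0.198, adjusted p = 6.05e-31), followed by Cachd1 (1.86), an alpha-2-delta-like protein, and Stac2 (1.54), an adaptor of L-type channels. Nrcam (-1.43), which anchors channels at the initial segment, Calm2 (-1.08) and Nedd4l (-1.05), a ubiquitin ligase for sodium channels, led the lower ones. OPCs had 13 of 25 higher (31.0% of all genes) and 4 lower (25.2%) than mature oligodendrocytes, and mural cells 7 higher (14.7%) and 3 lower (21.0%) than endothelial cells.

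The motor cortex differed from the prefrontal cortex in a limited set of channel genes, all of them called in neurons. Each of 12 classes with at least 20 cells in every library was fitted with genotype as a term. Over these, 27 of 189 tests of members were called, 17 higher and 10 lower in MC, while 2953 of 110188 tests of all genes (2.68%) were. L2/3, L4/5 IT and L6 CT cells are also part of the excitatory sums, and Sst cells of the inhibitory ones. The tests are therefore not separate, and a gene can be counted more than once. In excitatory neurons 26 members were tested: 5 were higher in MC, where 3.35% of all genes were, and 3 were lower, where 2.69% were. The median was 0.23 for the members and -0.01 for all genes. The MC group is 2 libraries of different genotype, so its spread is that of 1 pair.

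Scn4b had the largest rise. In excitatory neurons it was at 6.55 and 4.04 CPM in the PFC CTRL libraries, at 6.33, 6.22 and 9.08 in the PFC DTA libraries, at 21.7 in MC CTRL and at 23.3 in MC DTA. Both MC libraries lay above all PFC libraries, by more than the spread of either group (22.5 ± 1.17 against 6.44 ± 1.79). The log2 fold change was 1.87 (SE 0.216, adjusted p = 0.000515). It was called in inhibitory neurons as well (1.76, adjusted p = 0.0462), and in L2/3 (2.36), L4/5 IT (2.54) and L6 CT cells (2.51, adjusted p = 7.03e-05). The inhibitory call held under 6 of 14 alternatives, and its log2 fold change was 2.58 (adjusted p = 0.119) without MC CTRL and 0.97 (0.869) without MC DTA. Without MC DTA it was 3.79 in L4/5 IT cells (called) and 3.16 in L2/3 cells (not called). In L6 CT cells the PFC libraries ranged from 2.20 to 10.7 and the MC libraries were at 29.4 and 29.3. In L5 ET cells, which had too few cells for a test, the MC libraries were at 77.8 and 111 and the PFC libraries at 7.50 to 56.1.

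Scn1a was also higher in MC excitatory neurons. It was at 57.3 and 58.8 in the PFC CTRL libraries, at 63.0, 51.5 and 83.2 in the PFC DTA ones, at 110 in MC CTRL and at 108 in MC DTA. The groups did not overlap, and the log2 fold change was 0.81 (SE 0.161, adjusted p = 0.0113). Within subclasses Scn1a was called in L4/5 IT (0.92, adjusted p = 0.0496) and L6 CT cells (0.68, adjusted p = 0.0464). Those calls held under 11 of 15 and 5 of 15 alternatives. Scn8a was at 248 and 230 for PFC CTRL, 204, 256 and 239 for PFC DTA, and 330 and 349 in the MC libraries, again apart, with a log2 fold change of 0.53 in excitatory neurons (adjusted p = 0.03), 0.65 in inhibitory neurons (adjusted p = 0.0107) and 0.52 in L2/3 cells.

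Of the calcium channel genes, Cacna1a was at 88.8 and 76.3 for PFC CTRL, 75.7, 101 and 93.8 for PFC DTA, and 125 and 124 in MC excitatory neurons. Its log2 fold change was 0.53 in excitatory neurons (adjusted p = 0.035), 0.69 in inhibitory neurons (adjusted p = 0.0268) and 0.65 in L2/3 cells, with no overlap between areas. Cacna2d1 rose by 0.51 in excitatory neurons (353 ± 15.2 in MC against 248 ± 33.6 in PFC, adjusted p = 0.0479) and by 0.51 in L2/3 cells. Cacna2d3 rose by 0.84 in L4/5 IT cells, at 62.4 and 63.9 in MC against 25.0 to 48.2 in PFC.

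Fewer members were lower in MC. Scn9a, the pore of Nav1.7, was at 0.912 and 1.48 CPM in MC excitatory neurons and at 2.95 to 9.03 in PFC, with a log2 fold change of -2.32 (SE 0.425, adjusted p = 0.00833), and it was called also in inhibitory neurons (-1.65), L2/3 (-2.37) and L4/5 IT cells (-2.23). The antisense gene Gm13629 overlaps it. Cacna1h was at 6.03 and 8.79 in MC and at 13.9 to 23.6 in PFC excitatory neurons, with a log2 fold change of -1.31 (SE 0.235, adjusted p = 0.00685), and of -0.88 in L2/3 cells. L5 ET cells, which had its highest excitatory mean, made up 9.42% ± 4.11 of excitatory cells with a subclass in PFC (SD, n = 5) and 3.88% ± 0.584 in MC (n = 2), and the part of that share in the class-wide value was not tested.

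Scn3b, a sodium beta subunit, was at 88.3 and 97.0 for PFC CTRL, 77.5, 83.9 and 91.5 for PFC DTA, and 65.1 and 61.9 in MC excitatory neurons. The groups lay apart, with log2 fold changes of -0.47 (adjusted p = 0.0324) and, in L4/5 IT cells, of -1.004 (adjusted p = 0.000693, 41.4 ± 0.81 against 84.4 ± 5.11). Cacna1e was called in L4/5 IT cells, with -0.62, at 102 and 94.3 in MC against 123 to 181 in PFC. Scn7a was called lower in L2/3 cells on single UMIs in MC (-3.55), and the 2 areas overlapped there. By class, inhibitory neurons had 3 members higher (1.32% of all genes) and 1 lower (1.11%), L2/3 4 (4.27%) and 3 (3.43%), L4/5 IT 3 (2.27%) and 3 (2.13%), and L6 CT 2 (1.21%) and 0 (1.29%).

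In the other 7 classes with a test (Sst interneurons and the 6 glial and vascular classes), edgeR called 0 of 67 member tests, 9 of which had an unadjusted p under 0.05, and DESeq2 also called 0, with 2 under 0.05. The share of all genes called there was 1.06% in Sst cells, 0.275% in astrocytes, 0.0441% in mature oligodendrocytes, 0.0185% in OPCs and 0.00% in microglia, endothelial and mural cells. Leaving out an MC library leaves 1 in that area, which is then assumed to vary like the PFC libraries: 2 of 27 calls were left without MC CTRL (Scn4b in excitatory neurons and in L6 CT cells) and 4 without MC DTA (Scn4b in the same and in L4/5 IT cells, and Cacna1h in excitatory neurons). Folds of lost calls could stay as large: Scn3b in L4/5 IT cells was at -0.99 and -1.02, and Scn8a in excitatory neurons at 0.59 and 0.48, with one or the other MC library left out. Without PFC CTRL replicate 2, 12 calls were made. DESeq2 did not call Cacna1a (adjusted p = 0.0802) or Scn9a (0.088) in inhibitory neurons, Cacna1h (0.0656) or Scn7a (0.0904) in L2/3 cells, or Scn1a in L6 CT cells (0.22), and it gave Scn4b in inhibitory neurons no adjusted p. None of the 27 differences changed sign under any alternative run. Of 27 partner genes tested in excitatory neurons, 2 were lower in MC (2.69% of all genes) and 0 higher (3.35%). They were Rem2 (-1.11) and Rrad (-1.89), GTPases that lower calcium channel currents. In inhibitory neurons 1 of 25 was higher, Stac2 by 0.81 (1.32% of all genes), and 1 lower (1.11%). One partner each was higher in L2/3 (1 of 24, 4.27% of all genes), L4/5 IT (1 of 22, 2.27%) and L6 CT cells (1 of 23, 1.21%).

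**Figure D4:**
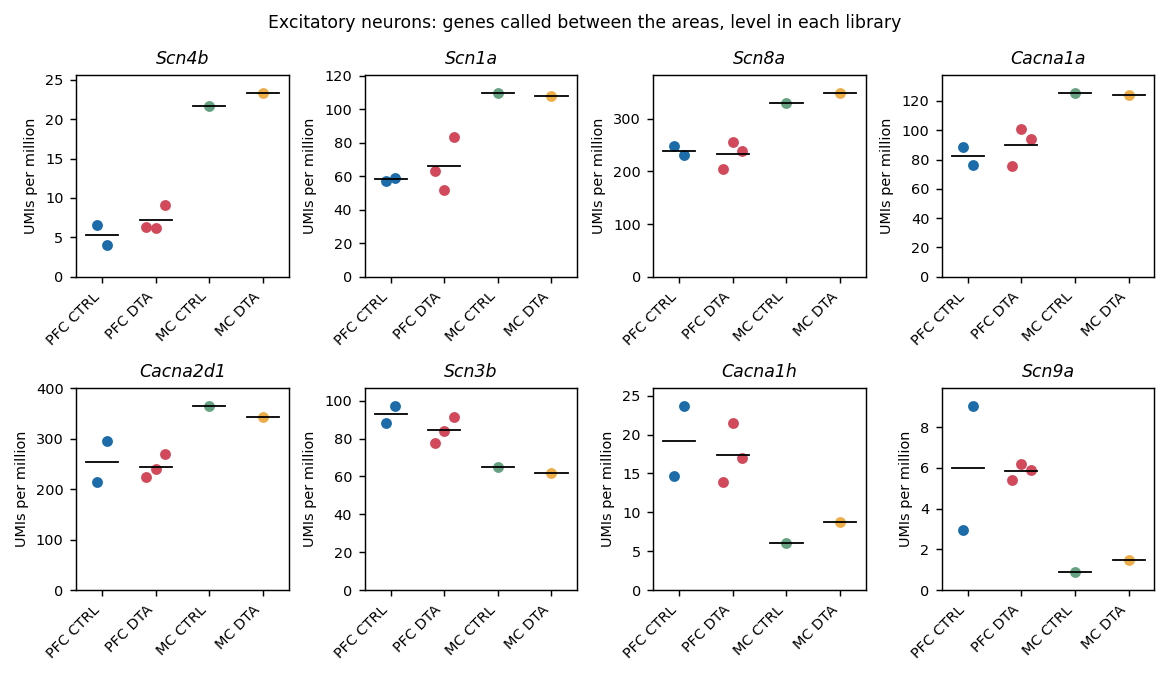
Level (CPM, y axis) in excitatory neurons of the 8 members called between the areas, by group (x axis). Each point is 1 library and each bar the mean of its group. The MC libraries lie above all PFC libraries for Scn4b, Scn1a, Scn8a, Cacna1a and Cacna2d1 and below them for Scn3b, Cacna1h and Scn9a.

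Scn4b and Scn9a had the largest area differences among the sodium channel genes called in excitatory neurons as a whole, one in each direction, and their promoters are shown to compare their composition. They are windows of the same kind, at chr9:45138374-45138673 on the plus strand for Scn4b and chr2:66634913-66635212 on the minus strand for Scn9a.
Scn4b: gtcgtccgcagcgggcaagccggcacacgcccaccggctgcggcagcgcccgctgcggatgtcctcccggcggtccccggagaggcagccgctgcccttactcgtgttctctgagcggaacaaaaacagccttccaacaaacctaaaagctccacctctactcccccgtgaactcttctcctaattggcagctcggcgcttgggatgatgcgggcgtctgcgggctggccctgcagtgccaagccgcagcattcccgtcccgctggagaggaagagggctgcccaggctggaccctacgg
Scn9a: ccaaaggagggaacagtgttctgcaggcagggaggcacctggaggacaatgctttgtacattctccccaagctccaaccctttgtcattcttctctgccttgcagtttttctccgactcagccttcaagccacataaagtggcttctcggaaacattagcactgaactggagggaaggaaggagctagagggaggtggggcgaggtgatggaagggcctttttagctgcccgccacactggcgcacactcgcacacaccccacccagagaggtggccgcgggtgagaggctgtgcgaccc
Neither window holds a GC box, and G or C made up 66.3% of Scn4b and 57.3% of Scn9a, against a median of 52.7% over all promoters. The genes themselves lie among their relatives. In the GENCODE M21 annotation of GRCm38, Scn4b spans chr9:45138395-45154152 on the plus strand, next to Scn2b at chr9:45117782-45130070 on the same strand. Scn9a spans chr2:66480080-66634962 on the minus strand, between Scn1a (chr2:66270778-66440840) and Scn7a (chr2:66673425-66784914), also on the minus strand. In excitatory neurons as a whole, Scn1a was higher and Scn9a lower in MC. Scn7a, beside Scn9a, and Scn2b, beside Scn4b, had no call there. In L2/3 cells Scn9a (-2.37) and Scn7a (-3.55) were both called lower in MC, the latter on single UMIs in MC.

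Between the genotypes, no member was called in PFC. Over the same 12 classes, nested as for area, edgeR called 0 of 171 member tests, and 4 of them (2.34%) had an unadjusted p under 0.05. Of all 103953 gene tests 1 was called, a gene in OPCs (0.0197% of genes there, 0.00% in excitatory and in inhibitory neurons), and 3.05% had an unadjusted p under 0.05. DESeq2 called 0 members, with 2 under 0.05. On simulated counts, the edgeR fit of genotype recovered 7 of 100 genes changed 1.5-fold in excitatory neurons and 10 of 100 in inhibitory neurons. Changes of that size would thus mostly be missed.

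The members with the smallest p in excitatory neurons were Cacna2d3, Cacna1i and Scn4b. Cacna2d3 was at 34.1 and 31.5 CPM in CTRL and at 41.6, 38.8 and 57.8 in DTA. The DTA libraries lay above both CTRL libraries, with PFC DTA replicate 3 the highest. The log2 fold change was 0.54 (95% interval 0.12 to 0.96, edgeR unadjusted p = 0.0151, adjusted p = 0.99984). Cacna1i had a log2 fold change of 0.30 (edgeR unadjusted p = 0.0817) and Scn4b of 0.52 (0.117). In inhibitory neurons Cacna2d1 was at -0.45 (unadjusted p = 0.0566 in edgeR, adjusted p = 0.928), Cacna2d3 at 0.41 (0.0581) and Cacnb2 at 0.41 (0.231). None of these differences passed the test.

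In the other classes, 1 gene each had the smallest p, and none was called. In mature oligodendrocytes Scn8a was at 60.9 and 29.9 in CTRL and at 19.5, 17.2 and 18.7 in DTA. The DTA libraries lay below both CTRL libraries, of which replicate 1 was the higher, with a log2 fold change of -1.18 (edgeR unadjusted p = 0.00383, adjusted p = 0.999). Without PFC CTRL replicate 2 it was called, at -1.71 (edgeR adjusted p = 0.00681), on a single CTRL library. All 8 members tested in these cells had a log2 fold change below 0. The summed level of the 8 excitatory markers in the same cells was 39.7 and 217 in CTRL and 65.2, 90.9 and 107 in DTA, and its part was not tested.

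With edgeR, which fits all genes, the other classes gave Cacna1e in L4/5 IT cells (-0.36, unadjusted p = 0.0479), Cacna2d1 in astrocytes (-0.86, 0.0578), Cacna1b in L2/3 (-0.30, 0.082), Cacna1a in Sst cells (0.50, 0.083), Cacnb3 in OPCs (-0.88, 0.0916), Scn2b in endothelial cells (-0.97, 0.311), Scn2a in L6 CT cells (-0.17, 0.371), Cacnb3 in microglia (-0.55, 0.465) and Cacna2d1 in mural cells (-0.09, 0.843). Their adjusted p-values were all 0.999 or above.

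**Figure D5:**
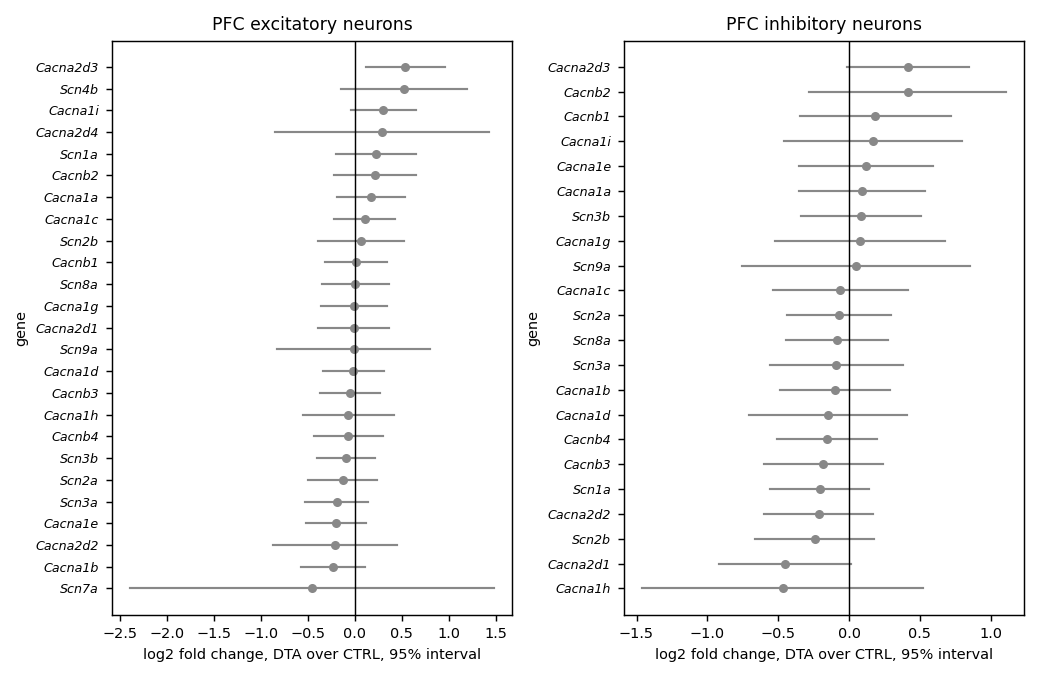
Log2 fold change of DTA over CTRL in PFC (x axis) with 95% intervals from edgeR (2 CTRL and 3 DTA libraries) for the tested members reported here in excitatory neurons (left) and inhibitory neurons (right). No member was called, and the interval of Cacna2d3 in excitatory neurons, 0.12 to 0.96, is the one that does not include 0.

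In the motor cortex there is 1 library per genotype, so no test was made, and the intervals below are exact Poisson ones that cover counting error only. The median log2 ratio of DTA to CTRL was 0.01 over 26 members in excitatory neurons and 0.01 over 23 members in inhibitory neurons. In excitatory neurons 8 members had an interval above 0, as 19.7% of all genes did, and 9 below it, as 18.6% did. In inhibitory neurons 4 were above (10.3%) and 8 below (9.98%). Cacna2d3, the member with the smallest p in PFC excitatory neurons, had a ratio of 0.53 (0.38 to 0.68) in MC excitatory neurons and of 0.01 in inhibitory neurons. Cacna1i was at 0.29 and Scn4b at 0.14 (-0.10 to 0.37) in excitatory neurons.

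The largest ratio in inhibitory neurons was that of Cacna2d1, at -1.51 (-1.81 to -1.21), with 146 CPM in MC CTRL and 51.2 in MC DTA. Lamp5 cells, which held 834 of the 1076 Cacna2d1 UMIs of inhibitory neurons over all libraries, made up 35.3% of interneurons with a subclass in MC CTRL and 20.8% in MC DTA. Within Lamp5 cells the gene was also lower in MC DTA, at 281, than in MC CTRL, at 500. The part of the Lamp5 share and of the level within Lamp5 cells in the class-wide ratio was not tested. Of the other genes named for PFC, Scn8a in mature oligodendrocytes had a ratio of -0.79 (-1.45 to -0.17), Cacna1a in Sst cells 0.80, Cacnb2 in inhibitory neurons -0.85, Cacna2d1 in astrocytes -1.08, Cacnb3 in microglia -1.39, Scn2a in L6 CT cells -0.28, Cacna1e in L4/5 IT cells -0.10 and Cacna1b in L2/3 cells 0.06.

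In glial and vascular cells the members were mostly lower in MC DTA. The interval was below 0 for 8 of 10 members in astrocytes (9.68% of all genes), 8 of 13 in mature oligodendrocytes (9.33%), 6 of 7 in microglia (10.1%) and 4 of 6 in endothelial cells (9.21%), with medians of -1.34, -0.79, -1.39 and -1.78. The summed excitatory markers were lower in the same library: 337 in MC CTRL and 168 in MC DTA in astrocytes, 167 and 57.1 in mature oligodendrocytes, 329 and 171 in microglia, and 305 and 50.7 in endothelial cells. Their part in those ratios was not tested.

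A genotype difference that depends on area was tested in both neuron classes. edgeR called 0 of 52 member tests of the interaction, 3 of which had an unadjusted p under 0.05, and 0 of 26557 tests of all genes. The spread in that fit comes from the PFC libraries, since each MC group is 1 library.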

How the data were processed

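UMI counts per gene and cell were deposited by the authors for 7 libraries. The submitters' processing notes name Cell Ranger 3.0.2, Seurat and mm10, in what order and role is not stated. The cells in the count tables add up to the numbers the series text gives.

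Cells were gated on markers (3 markers detected and a 2-fold lead over the next class). Doublets marked by Scrublet were removed, and in PFC DTA replicate 3, where it marked 0, the highest-scoring cells were (295 of 6072). Ungated cells, 8.73% to 44.3% of a library, were left out. Counts were summed per library and class and fitted over all genes with edgeR 4.0.16 in R 4.3.3 (robust quasi-likelihood, TMM, at least 10 counts by filterByExpr, Benjamini-Hochberg, threshold 0.05). Class comparisons had library as a block. Sums under 10 cells were left out. Subclass contrasts average log levels, so a sign can differ from that of mean levels. The fits were tested on simulated data, with 100 genes changed 1.5-fold and 100 changed 2-fold. The PFC genotype fit recovered 7 and 54 of them in excitatory and 10 and 61 in inhibitory neurons. The area fit recovered 26 and 86 in excitatory neurons. The fit of inhibitory against excitatory neurons recovered 82 and 94, and that of Pvalb cells 95 and 100. DESeq2 1.42.0 was an alternative.

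Named genes were the called members with the largest folds (6 each way per class comparison, 3 per subclass), all called members for area, and otherwise those with the smallest p. The members and lists were chosen with earlier results of these data known, and the gate rule after counting cells per gate. Some members are counted among the members tested but are not reported here by name.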

Additional observations from a re-analysis of the deposited data

How the results depend on the processing

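Called members numbered 12 between mural and endothelial cells, 7 with a stricter marker gate and 6 to 10 when 1 library was left out. Over the interneuron subclasses there were 63 calls, 38 in the PFC libraries alone and 57 to 65 with 1 library left out. In the PFC libraries alone, Sncg cells gave too few sums for a contrast. Their 11 calls therefore drop out, and the mean against which the other subclasses are set changes. For PFC genotype, 1 call was made in mature oligodendrocytes when replicate number entered as a block, and 0 to 1 with 1 library left out. What libraries with the same replicate number have in common was not known. The deviations of such PFC CTRL and DTA libraries correlated at 0.140 and 0.118 in excitatory neurons and 0.0362 and 0.0638 in inhibitory neurons. The values were 0.129 and -0.0659 in mature oligodendrocytes and 0.269 and -0.0190 in astrocytes. The deviations of 2 CTRL libraries are equal and opposite by construction, so these values cannot show whether equal numbers share a batch. Area calls numbered 27, and 2 to 29 with 1 library left out. Ranges for the other comparisons were 21 to 22 (neurons), 11 to 13 (inhibitory against excitatory), 16 to 18 (OPCs) and 53 to 60 (excitatory subclasses). Signs turned for Scn2b in L4/5 IT cells (-0.208 to 0.0077 with 1 library left out, the highest without PFC DTA replicate 3) and for 5 uncalled genotype differences. With 1 library left out, the inhibitory value of Cacna2d1 lay between -0.770 and 0.0324, its astrocyte value between -1.23 and 0.113, and the endothelial value of Scn2b between -1.48 and 0.294, each highest without PFC CTRL replicate 2. Cacna2d1 in mural cells ranged from -0.207 to 0.189, and was 0.0106 with the stricter gate and 0.184 with the replicate block. Cacnb2 in inhibitory neurons was -0.102 with that block. The causes were not tested. Library totals in place of TMM, chosen after seeing the data, turned no sign of a called member and ended 5 calls. It moved the median of all genes by 0.17 for neurons against non-neuronal classes, 0.12 for mural against endothelial cells, 0.17 for L5 NP cells and -0.20 for the microglial genotype comparison. The call and direction held under all alternatives for 52 of 63 class results, 85 of 117 subclass results and 2 of 27 area results. The filter on low counts left 2 members for the PFC genotype in mural cells, 3 each in endothelial cells and microglia, and 9 in OPCs, so most members have no test there.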

Other observations

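Cells outside the 9 classes are given as single sums over all libraries, with exact Poisson intervals that cover counting error only. Neuroblast-gated cells (56 cells, 123076 UMIs) had Cacnb4 at 114 CPM (62.2 to 191), Cacnb3 and Scn3b at 73.1 each (33.4 to 139), and Scn2a at 48.8 (17.9 to 106), with Scn4b, Cacna1g and Cacna1i at 0 UMIs, which allows up to 24.4.

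Cells gated as neutrophils (275 cells) had Scn2a at 146 CPM (106 to 195), against libraries of inhibitory neurons from 232 to 355. Cells gated as red blood cells (167 cells) had Scn2a at 38.8 (27.7 to 52.9), and cells that passed no gate (8093 cells) at 283 (274 to 292).

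Layer 6b cells (12 cells), a part of the excitatory class with too few cells for a test, had Scn2a at 572 CPM (430 to 747) and Scn8a at 339 (232 to 479).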
